A study of Mus musculus with 6 samples.

Results

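The genes described here encode the MHC class II antigen-presentation machinery of the mouse and its activator. They were taken by name: Cd74, H2-Aa, H2-Ab1, H2-Eb1, H2-DMa, H2-DMb1, H2-DMb2, H2-Oa, H2-Ob and Ciita. All 10 were found, 1 row each, among the 35458 Ensembl gene identifiers of the files. The 6 RNA-seq libraries came from splenic CD8+ T cells, 3 of Cd4cre mice with floxed Glut10 alleles (genotype Cd4creGlut10fl/fl, called KO) and 3 of Cd4cre mice (called control). Both groups carry Cd4cre, a transgene whose Cd4 regulatory elements switch Cre on in thymocytes before the CD4 and CD8 lineages part. Slc2a10 is the gene of Glut10, a sugar transporter. The labels give no strain, age or sex, nor whether each library is a different animal. The p-values therefore reflect library-to-library spread, part of which may be technical.

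Class II molecules display peptides from endosomes to CD4+ T cells. An alpha and a beta chain (H2-Aa with H2-Ab1; H2-Eb1 with the E alpha chain) assemble on the invariant chain, Cd74, which blocks the groove and guides the complex to endosomes. There H2-DM, a dimer of H2-DMa with H2-DMb1 or H2-DMb2, exchanges the invariant chain remnant for peptide, and H2-DO, a dimer of H2-Oa and H2-Ob, inhibits H2-DM. Ciita is the co-activator that these genes need. It does not bind DNA itself but is held by factors at a conserved promoter module, whose X box binds the RFX complex and whose Y box, an inverted CCAAT element, binds NF-Y. In the spleen B cells, dendritic cells and macrophages transcribe these genes strongly, while mouse T cells transcribe them little.

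The X and Y boxes could be read from the promoter sequences of 6 members, and they are shown because these 6 share them. RefSeq promoter windows (build GRCm38.p6, 250 bases before to 50 after each start) matched 7 of the 10 members. The 7-letter Y box TGATTGG was found in 6 of these 7 genes, and in each of the 6 it followed the letters AAC of the X box after 23 to 26 bases. Over all 32851 windows of this table, searched on both strands, TGATTGG was present in 7.82% and the pair with this spacing in 0.460%. The range of 23 to 26 bases runs from the smallest to the largest gap of these 6 genes. The share with the pair is therefore no test of the members. Neither of the windows of H2-DMa held TGATTGG. The stretches read 5′ to 3′ on the strand of the gene, with AAC and TGATTGG in capitals.
H2-Aa (chr17:34287861-34287914, minus strand): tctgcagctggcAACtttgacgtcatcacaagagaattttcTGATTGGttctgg
H2-Eb1 (chr17:34305766-34305818, plus strand): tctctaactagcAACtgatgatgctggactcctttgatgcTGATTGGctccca
H2-DMb1 (chr17:34153087-34153140, plus strand): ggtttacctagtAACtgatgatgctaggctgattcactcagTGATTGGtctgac
H2-DMb2 (chr17:34145116-34145169, plus strand): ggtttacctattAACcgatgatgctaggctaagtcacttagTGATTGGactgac
H2-Oa (chr17:34092293-34092346, plus strand): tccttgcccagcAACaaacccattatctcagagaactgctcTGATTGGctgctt
H2-Ob (chr17:34238808-34238858, plus strand): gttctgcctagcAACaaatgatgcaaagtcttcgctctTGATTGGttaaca

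The values were FPKM, fragments per exon length, scaled to the total of the library. Totals implied by the FPKM steps were 3420290, 14683400 and 3004540 fragments in KO 1, 2 and 3, against 11840600 to 15036300 in the controls. KO 1 and KO 3 also stood apart in the level of genes that should be silent. In 812 receptor genes of olfactory and vomeronasal neurons the mean was 0.994 and 1.05 FPKM in KO 1 and KO 3, 0.0188 FPKM in KO 2, and 0.0312 to 0.0800 FPKM in the controls. The medians were lower, at 0.114 and 0.145 FPKM in KO 1 and KO 3 and 0 FPKM in KO 2 and the controls. Controls 2 and 3 stood apart in another way, with summed neutrophil markers of 16772 and 29297 FPKM, against 439 FPKM in control 1 and 72.3 to 706 FPKM in the KO libraries. Slc2a10, the targeted gene, had 0 implied reads in each KO library and 4, 2 and 2 in control 1, 2 and 3. For this gene 3 reads would be 0.246, 0.0572 and 0.280 FPKM in KO 1, 2 and 3, while the controls measured 0.0946, 0.0373 and 0.0373 FPKM. These counts are too low to show a loss of the transcript. Because the libraries differed in depth, background and neutrophil markers, each member is given below with its value in every library. The part of these differences in the members' values was not tested.

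The invariant chain and the classical chains were the highest members, and they varied widely within each genotype. Cd74 measured 270, 117 and 306 FPKM in KO 1, 2 and 3, against 309, 89.6 and 91.4 FPKM in control 1, 2 and 3. H2-Aa, the A alpha chain, measured 132, 56.8 and 123 FPKM in the KO libraries, against 118, 26.3 and 27.6 FPKM in the controls. In both genes KO 1, KO 3 and control 1 were high and alike, KO 2 was intermediate, and controls 2 and 3 were low. H2-Ab1, the A beta chain, measured 128, 84.9 and 127 FPKM in the KO libraries, against 212, 33.9 and 32.2 FPKM in the controls. H2-Eb1, the E beta chain, measured 252, 83.1 and 255 FPKM in the KO libraries, against 210, 34.98 and 34.1 FPKM in the controls. The same order of libraries, with KO 1, KO 3 and control 1 above KO 2 and KO 2 above controls 2 and 3, held for 5 of the 10 members (Cd74, H2-Aa, H2-Ab1, H2-Eb1 and H2-DMb2). Of the 13956 genes tested, 8.28% had it. As this order was noticed in these values, no test was made of it.

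**Figure D1:**
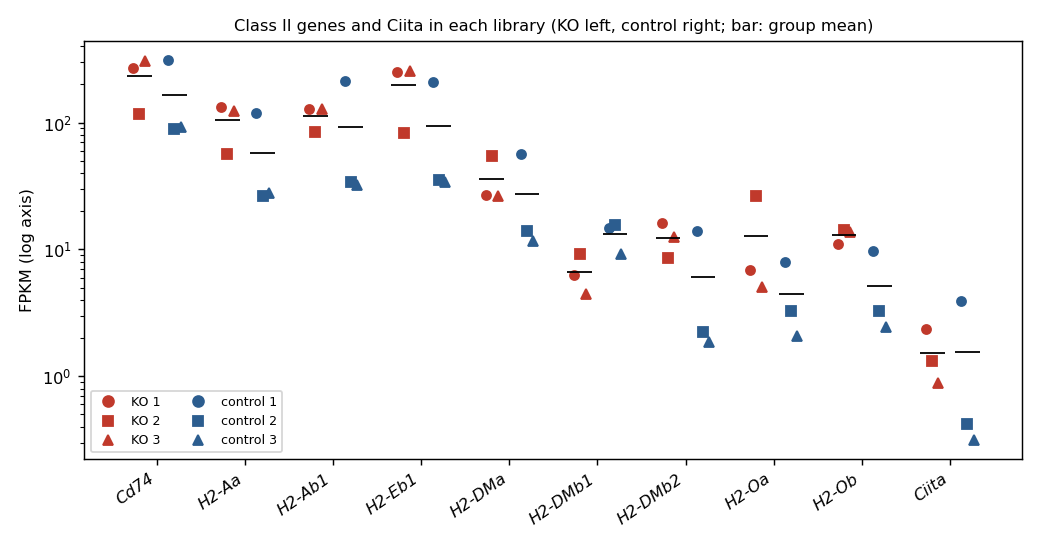
FPKM (log axis) of the 10 members in each library, KO in red at the left and control in blue at the right of each gene, with marker shape for the replicate number and a bar for the group mean. In Cd74 and the classical chains control 1 lies with KO 1 and KO 3, between 118 and 309 FPKM in H2-Aa, H2-Ab1, H2-Eb1 and Cd74, and away from controls 2 and 3.

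None of these 4 genes differed between the genotypes beyond the spread of the libraries. Cd74 averaged 231 ± 100.1 FPKM in KO cells and 163 ± 126 FPKM in control cells, and H2-Aa 104 ± 41.3 FPKM in KO cells against 57.4 ± 52.7 FPKM in control cells (SD, n = 3 each, here and below). H2-Ab1 averaged 113 ± 24.5 FPKM in KO cells against 92.9 ± 103.6 FPKM in control cells, and H2-Eb1 197 ± 98.6 FPKM in KO cells against 93.1 ± 101.5 FPKM in control cells. On the log2(FPKM + 1) scale, KO minus control was 0.64 (SE 0.60) for Cd74, 1.12 (SE 0.65) for H2-Aa, 0.84 (SE 0.73) for H2-Ab1 and 1.45 (SE 0.82) for H2-Eb1. The limma adjusted p-values, over all genes tested, lay between 0.430 and 0.5997. Each of these estimates was negative without controls 2 and 3, at -0.53, -0.27, -0.93 and -0.26 for Cd74, H2-Aa, H2-Ab1 and H2-Eb1. Without KO 1 and 3 that of Cd74 was -0.21 and those of the chains 0.35, 0.45 and 0.39.

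Ratios between members within a library do not depend on its total. H2-Eb1 over H2-Ab1 was 1.98, 0.979 and 2.01 in KO 1, 2 and 3, against 0.990, 1.03 and 1.06 in the controls. The E beta chain thus stood at about the level of the A beta chain in 4 libraries and well above it in the other two, both of the KO group. Cd74 over H2-Aa was 2.04, 2.07 and 2.48 in KO 1, 2 and 3, against 2.61, 3.41 and 3.31 in the controls, so that every KO library lay below every control. The ratios described in this text were chosen after the values were seen and were not tested. How often other ratios separate the groups was not computed. Among single genes tested, the groups did not overlap in 16.1%.

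The E region of the class II locus separated KO 1 and KO 3 further. H2-Ea-ps (ENSMUSG00000036322) is the E alpha gene; its symbol in this annotation reflects the C57BL/6 genome, where a promoter deletion keeps it from being transcribed. It measured 35.8, 0.794 and 40.3 FPKM in KO 1, 2 and 3, against 2.22, 0.194 and 0.194 FPKM in control 1, 2 and 3. These values correspond to about 127, 12 and 125 implied reads in KO 1, 2 and 3, and to about 27, 3 and 3 in the controls. KO 1 and KO 3 were high and the other 4 libraries low, so the genotypes overlapped through KO 2. H2-Eb2, a second E beta gene, measured 16.8, 1.202 and 9.04 FPKM in the KO libraries, against 2.60, 0.723 and 0.963 FPKM in the controls, again highest in KO 1 and KO 3. Relative to H2-Aa, H2-Ea-ps stood at 0.270 in KO 1 and 0.326 in KO 3, at 0.0140 in KO 2, and at 0.0187, 0.00738 and 0.00702 in the controls. In KO 1 and KO 3 its level also exceeded the 90th percentile of the sensory receptor genes, 2.51 and 2.70 FPKM. H2-Ea-ps and H2-Eb2 did not pass limma (log2 differences of 3.07, SE 1.26, and 1.67, SE 0.80; adjusted p = 0.417 for both). Without KO 2 both passed higher (H2-Ea-ps 4.55, limma adjusted p = 0.00217; H2-Eb2 2.54, limma adjusted p = 0.0118), as 12.1% of all genes did. Without KO 1 and 3 their differences were 0.11 and -0.063. Neither strain nor MHC haplotype is in the labels.

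**Figure D2:**
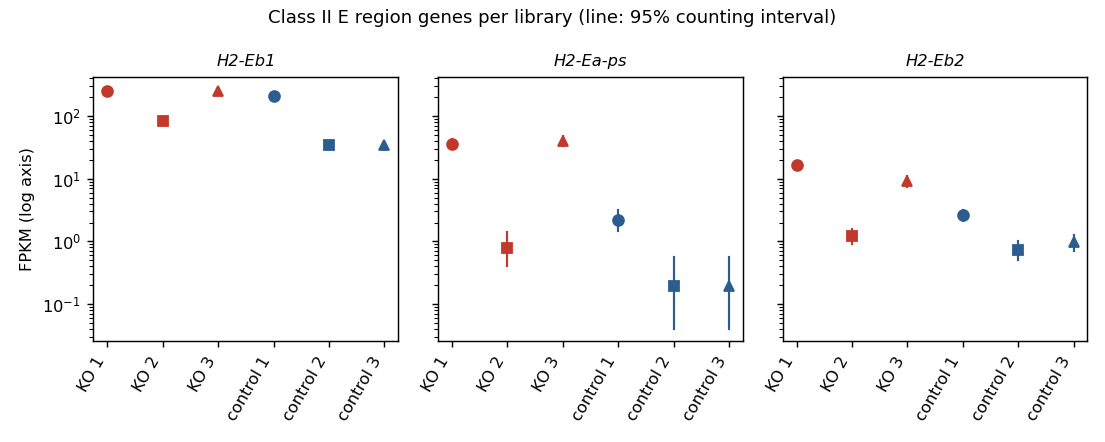
FPKM (log axis) of H2-Eb1, H2-Ea-ps and H2-Eb2 in each library, KO in red at the left and control in blue at the right, with vertical lines for the exact 95% Poisson interval of the implied reads. H2-Ea-ps lies at 35.8 and 40.3 FPKM in KO 1 and KO 3 and between 0.194 and 2.22 FPKM in the other 4 libraries.

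The H2-DM genes did not follow one pattern. H2-DMa, the alpha chain of the peptide exchange factor, measured 26.7, 54.4 and 26.4 FPKM in KO 1, 2 and 3, against 56.6, 13.9 and 11.8 FPKM in control 1, 2 and 3. It was high in KO 2 and control 1 rather than in KO 1 and KO 3. H2-DMb2, one of its beta chain partners, measured 16.1, 8.48 and 12.5 FPKM in the KO libraries, against 14.0, 2.22 and 1.87 FPKM in the controls, in the order of the classical chains. H2-DMb1, the other partner, measured 6.30, 9.17 and 4.48 FPKM in the KO libraries, against 14.7, 15.6 and 9.14 FPKM in the controls. The highest KO library thus only just reached the lowest control, and H2-DMb1 was the 1 member with a lower estimate in KO cells.

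The difference of H2-DMb1 was -0.90 (SE 0.34) on the log2(FPKM + 1) scale, with means of 6.65 ± 2.36 FPKM in KO and 13.1 ± 3.49 FPKM in control cells. That of H2-DMb2 was 1.33 (SE 0.68), with 12.3 ± 3.80 FPKM in KO and 6.02 ± 6.89 FPKM in control cells. That of H2-DMa was 0.65 (SE 0.63), with 35.8 ± 16.1 FPKM in KO and 27.4 ± 25.3 FPKM in control cells. Without controls 2 and 3 the estimates of H2-DMb2 and H2-DMa were -0.21 and -0.73. The limma adjusted p-values were 0.417 for H2-DMb1, 0.419 for H2-DMb2 and 0.611 for H2-DMa. H2-DMb1 kept a negative estimate in all 14 alternative settings run, from -1.17 to -0.44, and passed in none of them (lowest adjusted p 0.0842).

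H2-DMb1 over H2-DMb2 was 0.392, 1.08 and 0.360 in KO 1, 2 and 3, against 1.05, 7.01 and 4.89 in control 1, 2 and 3. The balance of the beta chains therefore differed more than 10-fold across libraries, with KO 2 and control 1 near 1 and controls 2 and 3 dominated by H2-DMb1. Their sum moved less, at 22.4, 17.7 and 16.9 FPKM in the KO libraries, against 28.7, 17.8 and 11.0 FPKM in the controls. The pair is similar in sequence: 369 of the 1629 stretches of 50 bases in the H2-DMb1 transcripts (22.7%) also occur in H2-DMb2. How the authors counted reads that fit both is not given, so the split between them is uncertain. In H2-DMa, 10.4% of the exonic bases overlap Brd2 on the opposite strand, and the strand setting is not given either. Brd2, a bromodomain protein gene, measured 107, 59.95 and 64.8 FPKM in the KO libraries, against 91.4, 54.6 and 71.6 FPKM in the controls.

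The H2-DO genes include the 1 member whose genotypes did not overlap. H2-Ob, the DO beta chain, measured 10.9, 14.2 and 13.6 FPKM in KO 1, 2 and 3, against 9.72, 3.25 and 2.43 FPKM in control 1, 2 and 3. Every KO library lay above every control, although control 1 was close to KO 1. Of all genes tested, 6.7% had every KO library above every control, so 1 of 10 members is near that share. In no member was every KO library below every control, as it was in 9.44% of all genes. H2-Ob averaged 12.9 ± 1.74 FPKM in KO and 5.13 ± 3.996 FPKM in control cells, a log2 difference of 1.36 (SE 0.46; limma adjusted p = 0.417). Its estimate was positive in all 14 alternative settings, and 0.37 at the lowest, without controls 2 and 3.

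H2-Oa, the DO alpha chain, measured 6.90, 26.5 and 5.07 FPKM in the KO libraries, against 7.97, 3.29 and 2.08 FPKM in the controls. KO 2 stood alone at the top, and KO 1 and KO 3 lay below control 1. Its means were 12.8 ± 11.9 FPKM in KO and 4.45 ± 3.11 FPKM in control cells, a log2 difference of 1.16 (SE 0.68; limma adjusted p = 0.440). The estimate was 0.50 without KO 2, 0.29 without controls 2 and 3 and 2.49 without KO 1 and 3. H2-Oa over H2-Ob was 1.87 in KO 2, 0.630 and 0.372 in KO 1 and KO 3, and 0.820, 1.01 and 0.855 in the controls. In H2-Oa, 22.8% of the exonic bases overlap BC051537 on the opposite strand, which was listed at no more than 0.1995 FPKM in any library. Summed, H2-Oa and H2-Ob over H2-DMa came to 0.668, 0.750 and 0.709 in KO 1, 2 and 3, against 0.313, 0.470 and 0.383 in control 1, 2 and 3. This ratio of inhibitor to exchange factor transcripts was higher in every KO library than in every control. It was chosen after the values were seen, and no share of other ratios with such a separation was computed. Of single genes tested, 16.1% had groups apart in one direction or the other.

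**Figure D3:**
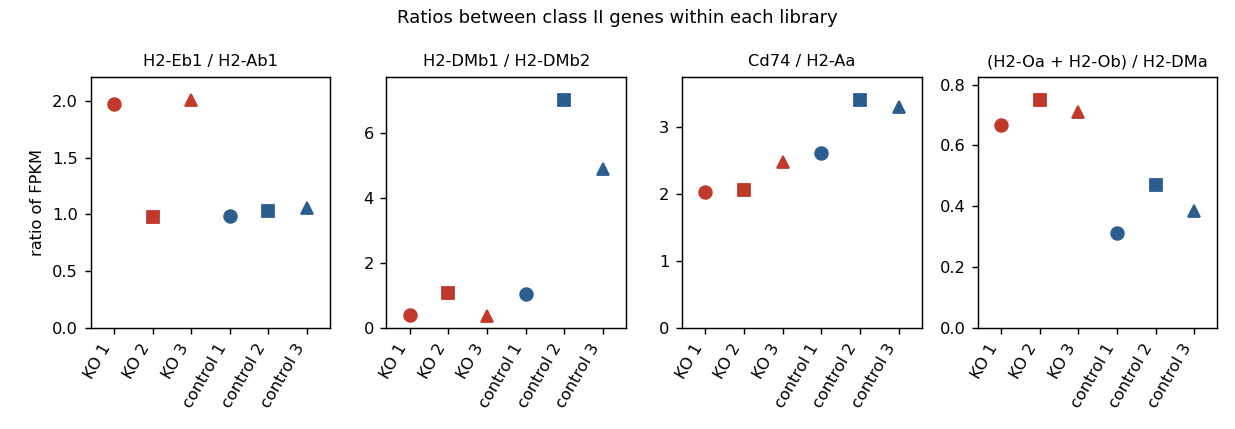
Ratios of FPKM between members within each library, KO in red at the left and control in blue at the right, on linear axes from 0. H2-Eb1 over H2-Ab1 is near 2.0 in KO 1 and KO 3 and near 1.0 in the other 4 libraries. Cd74 over H2-Aa is lower, and H2-Oa plus H2-Ob over H2-DMa higher, in all 3 KO libraries than in the 3 controls. The ratios were chosen after the values were seen and were not tested.

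Ciita was the lowest member. It measured 2.34, 1.32 and 0.887 FPKM in KO 1, 2 and 3, against 3.89, 0.418 and 0.316 FPKM in control 1, 2 and 3. Control 1 was the highest library and controls 2 and 3 the lowest, with the KO libraries between them. The values correspond to about 76, 185 and 25 implied reads in the KO libraries, and to about 439, 60 and 45 in the controls. Before rounding several were off whole reads, as at 76.2, 25.4 and 45.4 in KO 1, KO 3 and control 3. The exon length used may thus not be that of the authors, and the true counts are uncertain. The 95% Poisson interval of the rounded reads, which covers counting error alone, was 0.574 to 1.31 FPKM in KO 3. This interval is too narrow if the true reads were fewer. It includes the mean of the sensory receptor genes in that library, 1.05 FPKM, and lies above their median, 0.145 FPKM. Means were 1.52 ± 0.744 FPKM in KO and 1.54 ± 2.03 FPKM in control cells, a log2 difference of 0.23 (SE 0.58; limma adjusted p = 0.860). The estimate was negative after quantile normalization (-0.019) and without controls 2 and 3 (-0.9998). The values cover the whole gene and do not separate its alternative promoters.

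Of 8 genes for the factors that hold Ciita at the promoter module, 8 were tested and 0 passed in either direction. Estimates were higher in KO cells for 3 and lower for 5, with a median log2 difference of -0.03, beside 0.10 over all genes tested. Rfx5, the DNA-binding RFX subunit, was lowest in KO 3, at 0.605 FPKM. This lay below the mean of the sensory receptor genes in that library, 1.05 FPKM, but above their median, 0.145 FPKM. Rfxap, an RFX subunit, measured 16.8, 15.9 and 19.7 FPKM in the KO libraries, against 15.1, 9.56 and 10.6 FPKM in the controls. Atf1, a relative of the X box factor Creb1, measured 24.5, 27.8 and 22.8 FPKM in the KO libraries, against 29.1, 47.8 and 43.5 FPKM in the controls. Neither passed limma (adjusted p = 0.417 for both). Every KO library lay above every control in Rfxap and below every control in Atf1, and the genotypes were apart in one direction or the other in 16.1% of all genes tested. Of 8 genes of interferon gamma signalling, the main inducer of Ciita outside B cells and dendritic cells, 0 passed, with a median of 0.55. Among them Usf1, an E-box factor that also acts at a Ciita promoter, measured 26.5, 29.9 and 35.7 FPKM in the KO libraries, against 29.0, 16.1 and 18.5 FPKM in the controls.

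Over all 10 members, which all passed the filter of at least 1 FPKM in at least 3 libraries, 0 passed limma at an adjusted p of 0.05 in either direction. Of all 13956 genes tested, 0% passed, so the members cannot be read against that background. At an unadjusted p under 0.05 there was 1 higher member, H2-Ob, and 1 lower, H2-DMb1, where 5.33% and 6.46% of all genes (1646 in all) were higher and lower. On the implied reads limma-voom called 0 of 13934 genes, and 1396 had a p under 0.05 before adjustment. Estimates were higher in KO cells for 9 members and lower for 1, with a median of 0.98. Over all genes tested 7941 were higher and 6015 lower, which is also the background for the lists below. Several members varied together across the libraries, so their estimates are not independent. After quantile normalization, which shifted the median of all genes to -0.12, 8 members were higher and 2 lower, with a median of 0.78. Summed, the members came to 852, 456 and 875 FPKM in KO 1, 2 and 3, against 957, 223 and 213 FPKM in control 1, 2 and 3. The log2 ratio of these group means was 0.65 with all libraries.

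These estimates depended on control 1. Without it, H2-Ab1 (1.72, limma adjusted p = 0.0404) and H2-Ob (1.86, limma adjusted p = 0.0419) passed higher, where 1.05% of all genes passed in that direction. No member passed lower, where 1.55% of all genes did. The log2 ratio of the summed levels was then 1.74. Without controls 2 and 3, which leaves control 1 to stand for its group, 8 of 10 estimates were lower in KO cells, with a median of -0.40. H2-Oa and H2-Ob were the exceptions. Without KO 1 and 3, 8 estimates were higher and 2 lower, with a median of 0.42. In these last 2 fits the lone library is assumed to vary like those of the other group, and no member passed.

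**Figure D4:**
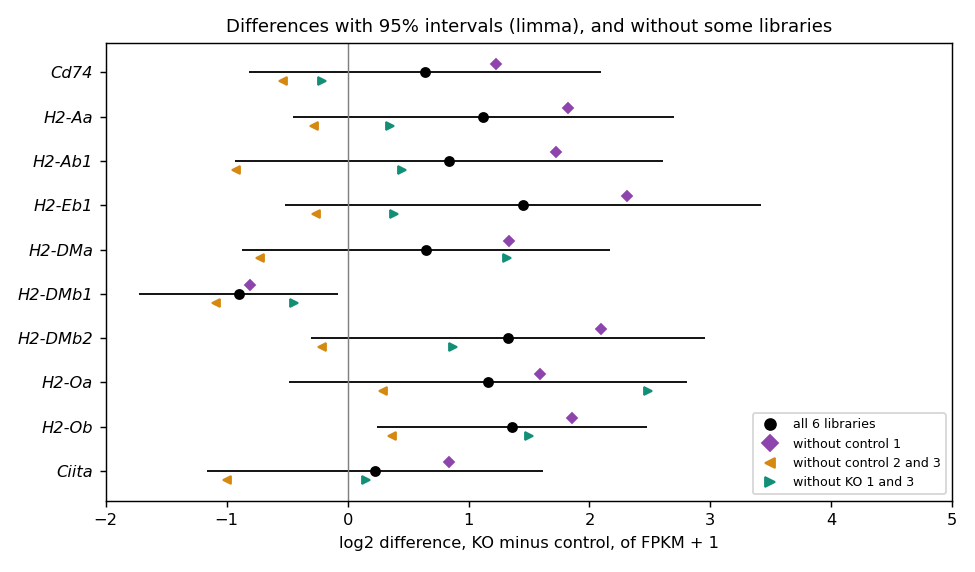
log2 differences of FPKM + 1, KO minus control, for each member, with 95% intervals from limma (black, all 6 libraries) and the estimates without control 1 (diamonds), without controls 2 and 3 (left triangles) and without KO 1 and 3 (right triangles). The estimates of H2-DMb1 stay below 0 and those of H2-Oa and H2-Ob above 0 in all 4, while Cd74, the classical chains, H2-DMa, H2-DMb2 and Ciita lie on both sides.

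Of 11 genes for antigen processing and for turnover of class II at the surface, 10 were tested, 0 passed, and 2 had higher and 8 lower estimates, with a median of -0.64. Ctsl, a cathepsin that degrades the invariant chain in thymic epithelium, measured 11.1, 6.23 and 19.3 FPKM in the KO libraries, against 28.9, 76.2 and 20.3 FPKM in the controls. Marchf8, an E3 ligase that can ubiquitinate class II, measured 1.73, 0.870 and 1.73 FPKM in the KO libraries, against 2.09, 6.80 and 8.91 FPKM in the controls. Of 9 class I and peptide transport genes, several of which lie in the same locus, 0 passed and all 9 had higher estimates, with a median of 0.51. Psmb8, an immunoproteasome subunit, measured 42.4, 66.8 and 54.9 FPKM in the KO libraries, against 46.4, 18.7 and 11.8 FPKM in the controls. Tap2, of the peptide transporter, measured 32.5, 41.5 and 42.4 FPKM in the KO libraries, against 38.9, 24.7 and 19.7 FPKM in the controls.

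Nearly all markers of the cells that carry class II had values above 0 in every library, which alone does not show that these cells were present. In KO 1 and KO 3, 64.9% and 67.2% of the sensory receptor genes were also above 0. In KO 2 and control 2, 4 of 10 dendritic cell markers reached 1 FPKM. In bulk RNA, fewer cells of a type and less RNA per cell cannot be told apart. The 14 B cell markers summed to 111, 68.9 and 80.8 FPKM in KO 1, 2 and 3, against 66.1, 23.03 and 34.3 FPKM in control 1, 2 and 3; Fcer2a was at 0 in control 2 and no other marker was at 0. Cd79a, a B cell receptor signalling chain, measured 32.3, 15.3 and 27.6 FPKM in the KO libraries, against 15.8, 5.30 and 3.20 FPKM in the controls, and its partner Cd79b 28.8, 23.03 and 20.002 FPKM in the KO libraries, against 18.1, 6.33 and 5.07 FPKM in the controls. The summed B cell level was lowest in controls 2 and 3, but single markers differed in order: Blk, a B cell kinase, measured 5.43, 10.2 and 4.98 FPKM in the KO libraries, against 9.62, 1.26 and 16.1 FPKM in the controls. Cd74, H2-Aa, H2-Ab1 and H2-Eb1 summed to 12.8, 8.92 and 17.0 times Cd79a plus Cd79b in KO 1, 2 and 3, against 25.05, 15.9 and 22.4 times in the controls. Of 8 B cell markers tested, 0 passed, all 8 had higher estimates and the median was 0.84. The part of B cells in the class II values was not tested.

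The 10 dendritic cell markers summed to 598, 441 and 409 FPKM in the KO libraries, against 483, 185 and 214 FPKM in the controls, most of it from Ccr7, which T cells express too. Batf3, a transcription factor of cross-presenting dendritic cells, measured 11.2, 4.73 and 14.0 FPKM in the KO libraries, against 7.67, 0.584 and 1.29 FPKM in the controls, in the order of the classical chains. Cd209a was at 0 in controls 2 and 3. Itgax, the integrin CD11c, measured 1.95, 4.31 and 1.52 FPKM in the KO libraries, against 5.82, 1.46 and 3.86 FPKM in the controls, in another order, and was also chosen after its values were seen. Of 7 dendritic cell markers tested, 0 passed, 5 had higher and 2 lower estimates, and the median was 0.48. The 14 macrophage and monocyte markers summed to 894, 387 and 2060 FPKM in the KO libraries, against 2017, 4568 and 4679 FPKM in the controls, most of it from Lyz2. Lyz2, the lysozyme of myeloid cells, measured 628, 254 and 1590 FPKM in the KO libraries, against 1700, 3932 and 4208 FPKM in the controls, and Ccr2, a monocyte chemokine receptor, 5.02, 3.92 and 4.43 FPKM in the KO libraries, against 7.27, 8.40 and 11.6 FPKM in the controls. Mertk, a macrophage receptor for dying cells, measured 8.77, 0.723 and 7.45 FPKM in the KO libraries, against 6.31, 2.50 and 1.44 FPKM in the controls, high in KO 1, KO 3 and control 1. C1qa, of the same list, measured 12.1, 0.262 and 70.1 FPKM in the KO libraries, against 15.1, 18.0 and 8.76 FPKM in the controls, highest in KO 3. Of 13 tested, 0 passed, 2 had higher and 11 lower estimates, and the median was -0.45. Like Itgax, Mertk, C1qa and Blk were picked with their values known. The part of dendritic cells and macrophages in the class II values was not tested.

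**Figure D5:**
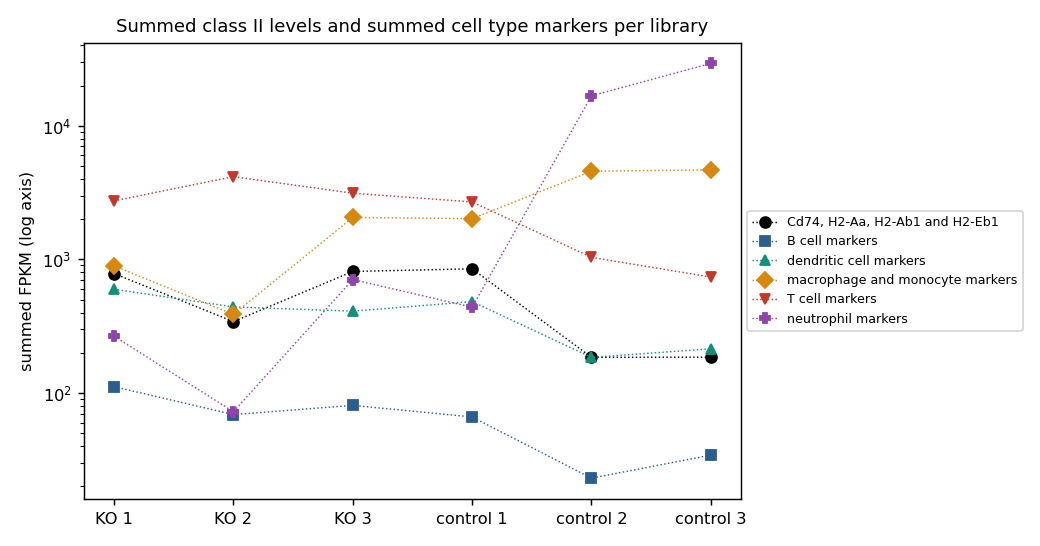
Summed FPKM (log axis) of Cd74, H2-Aa, H2-Ab1 and H2-Eb1 and of the marker lists in each library, KO at the left and control at the right, with dotted lines joining the points of one list. The class II sum is lowest in controls 2 and 3, at 185 FPKM in both, where the B, dendritic and T cell marker sums are also lowest. The neutrophil and macrophage sums are highest there, the latter mostly through Lyz2, and single macrophage markers differ in order.

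All 15 T cell markers were at 1 FPKM or more in every library, but their level differed. They summed to 2741, 4160 and 3128 FPKM in KO 1, 2 and 3, against 2691, 1036 and 737 FPKM in the controls. Relative to Cd3d, a T cell receptor chain, the sum of Cd74 and the 3 classical chains was 4.54, 1.19 and 3.76 in the KO libraries, against 5.55, 2.39 and 3.83 in the controls. On this scale the genotypes overlapped, KO 2 was the lowest library and control 1 the highest. Of 15 T cell markers tested, 0 passed, with a median of 1.24. In the other marker lists 0 genes passed as well: the medians were -0.44 for 4 CD4 and regulatory T cell genes, -3.91 for 11 neutrophil genes, -4.70 for 2 erythroid genes, -0.20 for 3 plasma cell genes and 1.35 for the 1 NK cell gene tested. Zbtb7b, the CD4 lineage factor, measured 4.60, 3.301 and 2.56 FPKM in the KO libraries, against 8.47, 17.0 and 25.9 FPKM in the controls. Jchain, which joins secreted antibodies, measured 4.76, 154 and 6.88 FPKM in the KO libraries, against 225, 13.5 and 38.3 FPKM in the controls, high in 1 library of each group. Ncr1, an NK cell receptor, measured 7.40, 0.752 and 4.75 FPKM in the KO libraries, against 1.04, 0.562 and 0.605 FPKM in the controls.

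Across the 6 libraries, members differed in how closely they followed the mean log2(FPKM + 1) of Cd74, H2-Aa, H2-Ab1 and H2-Eb1. As a description over libraries that share no other measure of class II, Pearson r was 0.971 for H2-DMb2, 0.82 for H2-Ob, 0.81 for Ciita, 0.67 for H2-DMa, 0.37 for H2-Oa and -0.44 for H2-DMb1. Of 16821 genes with a mean of at least 1 FPKM, 145 had r of at least 0.95, H2-DMb2 among them. Cd74, H2-Aa, H2-Ab1 and H2-Eb1 are also counted there, but they make up the mean, which raises their own r by construction. The 12 closest genes outside the members had r of 0.984 to 0.996. The first, Rabggta, a subunit of the Rab prenylation enzyme, measured 20.9, 16.1 and 20.2 FPKM in the KO libraries, against 21.5, 11.5 and 11.9 FPKM in the controls. Traf2, a TNF receptor adaptor, measured 15.3, 12.6 and 15.9 FPKM in the KO libraries, against 16.1, 9.36 and 9.09 FPKM in the controls. Tubb2a, a tubulin, measured 39.2, 19.9 and 41.8 FPKM in the KO libraries, against 40.8, 15.5 and 12.4 FPKM in the controls. After quantile normalization 3 of the 12 remained among the closest.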

How the data were processed

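The authors deposited 1 table per library of FPKM values (fragments per exon length, scaled to the library total), a unit read from the values, since per the labels none is stated. The submitters' processing notes list mm8 as the build and, as tools, HTSeq 0.6.0, HISAT2 2 and Bowtie2 2.2.3, without their roles; strand setting, annotation and the FPKM step are not given in the sources used here. Of 35458 identifiers, 35358 matched GENCODE M21, which gave symbols and exon lengths; coordinates printed are those of the RefSeq promoter table (GRCm38.p6), not of the files.

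FPKM times exon length fell on steps of 1 read: 92.1% to 93.4% of values under 200 implied reads lay within 0.02 of a whole number, which gives approximate reads and totals. Values off whole reads, among them those of Ciita, H2-Oa and H2-DMb1 in KO 3, may reflect an exon length other than that of the authors. This was not tested, and reads and intervals of such genes are less certain. Counting intervals and these reads cover counting error only. The 13956 genes that reached 1 FPKM in 3 or more libraries were tested as log2(FPKM + 1), which understates changes of low genes. All 6 libraries entered limma 3.58.1, run in R 4.3.3 with its trend option and no covariate, and p-values were adjusted over all genes by Benjamini-Hochberg, with a threshold of 0.05. The procedure was checked on simulated data drawn from 1 mean profile. These lacked the differences in background and cell markers between the libraries, so the check does not bear on why no gene passed.

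The members, lists and tests were chosen with earlier results of these data known. The 14 lists held 121 entries: 117 matched by symbol, 2 by a RefSeq synonym, and 2 were other names of H2-Ea-ps and H2-Ob. Named were all members, Slc2a10, up to 3 members of each list past the threshold or else up to 2 by smallest p, and the 12 genes closest to Cd74, H2-Aa, H2-Ab1 and H2-Eb1; not all of these are described, 1 is not reported here, and overlapping genes were added. No 2 libraries of a group agreed within sampling noise (chi-square per gene of at least 14.3). Alternatives were a pseudocount of 0.1, no filter, quantile normalization, a replicate block, limma-voom on implied reads, libraries left out and protein-coding genes only; implied reads scaled to their sum were added after the data were seen. Plots used matplotlib 3.10.9, and tables scipy 1.17.1, pandas 2.3.3, numpy 2.4.6 and Python 3.11.15.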

Additional observations from a re-analysis of the deposited data

How the results depend on the processing

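No gene passed under a pseudocount of 0.1, no filter, quantile normalization, limma-voom, protein-coding genes only, or without controls 2 and 3 or KO 1 and 3. With 1 library left out, the count over all genes ranged from 0 to 1821 (without KO 2; 363 without control 1), over the members from 0 to 2, over the other lists from 0 to 14 (without control 1; 6 without KO 2), and the log2 ratio of the summed class II levels from 0.30 to 1.74. That ratio was -0.40 without controls 2 and 3, -0.025 without KO 1 and 3, 0.55 after quantile normalization and 0.65 on implied reads scaled to their sum. Left-out libraries gave -0.11 to 0.84 for Ciita and -0.072 to 0.95 for Mzb1. Signs also turned without controls 2 and 3 for Cd74 (-0.53), H2-Aa (-0.27), H2-Ab1 (-0.93), H2-Eb1 (-0.26), H2-DMa (-0.73), H2-DMb2 (-0.21), Ciita (-0.9998), Tap2 (-0.013), Ccr7 (-0.018), Mzb1 (-1.05), Hba-a1 (0.028) and Hbb-bs (0.60). They turned without KO 1 and 3 for Cd74 (-0.21), H2-Eb2 (-0.063) and Jchain (1.62), and after quantile normalization for Ciita (-0.019). The cause was not tested.

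With the replicate number as a block, 0 genes, 0 members and 0 genes of the other lists passed, and the lowest adjusted p among the members was 0.390. Deviations from group means correlated at 0.11, 0.020 and 0.018 between KO and control libraries numbered 1, 2 and 3, and KO 3 correlated best with control 2 (0.14). With so few libraries, which also differ in background and cell markers, these values cannot decide whether the numbers pair them.

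Depth limits Ciita, H2-Oa and H2-DMb1 most, at about 25.4, 21.4 and 22.6 implied reads in KO 3 before rounding. None of these values lay within 0.02 of a whole number, so the true counts are uncertain.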
